A study of Mus musculus with 6 samples.

Results

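The 10 genes described here lie on mouse chromosome 5 between 136.9 and 138.1 Mb of GRCm38 at a distance of 5.61 Mb from the end of Galnt17, the gene knocked out in the study. They were chosen from their position and from their fold change and adjusted p in the same comparison of knockout and wild-type cerebella that is reported below, and they hold 5 genes that had passed the threshold of that comparison and 5 that had not. The members are 4933404O12Rik, Vgf, Ap1s1, Muc3a, Ache, Srrt, Trip6, Slc12a9, Gjc3 and Zkscan1, in chromosome order, and make up 10 of 55487 genes in the count tables and 10 of 18237 that passed the filter on low counts. All 10 passed that filter. Their own differences between the groups are therefore given as descriptions, with no test. In that selection the threshold was an adjusted p below 0.05, which 1.66% of all genes tested met, with Trip6 just inside it (0.043) and Vgf just outside it (0.0593).

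RNA was sequenced from the whole cerebella of individual 14-day-old male mice, 3 knockouts (KO) and 3 wild types (WT). The KO mice were homozygous for the Galnt17tm1.1(KOMP)Vlcg allele. Per the labels, that allele was brought in as sperm used on C57BL/6J eggs, homozygotes on C57BL/6 were not born alive, and live ones were obtained after breeding to F1 hybrids of C57BL/6J and C3H/He (B6C3). The WT mice are labelled as B6C3. The labels do not give litters, the number of crosses or the parental strain of chromosome 5 in any animal, so an effect of losing Galnt17 and an effect of sequence inherited with the allele on the same chromosome cannot be told apart in this design.

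Neighbouring genes of a mammalian chromosome are mostly transcribed from promoters of their own and serve unrelated functions, although promoters and enhancers that lie close together can act on more than one gene. Genes near a targeted locus are inherited with it over many crosses, because recombination seldom separates nearby loci. The members here work in different processes. Vgf is the precursor of secreted neuropeptides and Ap1s1 a subunit of the clathrin adaptor AP-1 that sorts membrane proteins at the trans-Golgi network. Ache ends cholinergic transmission by hydrolysing acetylcholine, Srrt works with the nuclear cap-binding complex and in microRNA processing, Trip6 is a LIM domain protein of focal adhesions, Slc12a9 belongs to the cation-chloride cotransporter family, Gjc3 is a connexin of myelinating glia and Zkscan1 is a zinc finger transcription factor.

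Sequenced counts in genes ranged from 17111611 to 29840046 per library. Galnt17 itself had 72, 80 and 63 counts in the KO libraries against 1119, 729 and 963 in the WT libraries (15.3-fold lower, log2 fold change -3.94, SE 0.12). Granule cell markers summed to 6300 to 6485 CPM (counts per 1000000 counts, scaled by TMM) in KO and 5992 to 6431 in WT, and Purkinje cell markers to 5716 to 5885 and 4683 to 5015, and none of the 12 markers of either list had a library at 0. Unmapped reads made up 13.8% to 17.2% of reads in KO and 6.52% to 10.03% in WT, groups that did not overlap. WT replicate 1 stood apart in that the deviation of its genes from the WT mean followed GC content (Spearman rho -0.344 across 10680 genes, against -0.0764 to 0.222 in the other 5 libraries, as a description), and results are given with and without it. Of 14 choroid plexus markers 11 fell in KO (edgeR, where 0.872% of all genes fell), 1 without KO replicate 2, 2 without WT replicate 2 and 9 to 12 without any other single library. Their summed level was 241.7 to 805.5 CPM against 1649 to 2950 CPM. Of 12 Purkinje cell markers 11 had a log2 fold change above 0, as had 48.5% of all genes tested. In edgeR 3 rose (Gng13, Pcp2 and Car8), where 0.784% of all genes rose. In DESeq2 6 rose, where 3.38% of all genes passed in either direction. In edgeR 0 rose without KO replicate 2 or 3, 1 without KO replicate 1 or WT replicate 2 and 8 without WT replicate 1. The fit without WT replicate 1 called 10.5% of all genes. With the 2 strand columns summed, Gng13 did not pass (log2 fold change 0.35, edgeR adjusted p = 0.0671). The part of these markers in the values of the members was not tested.

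The 250 bases before the RefSeq start of a gene were available for 8 of the 10 members (GRCm38.p6). Those of 5 members are shown, because 2 of them belong to the adjacent pair Trip6 and Slc12a9, which lie 153 bases apart and differ in how they compared between the groups, and 3 to the outer members of the stretch. Each is printed on the gene's own strand, 5′ to 3′, without bases that GENCODE places inside the gene, and capitals mark the motifs found by the search described next. The positions are chr5:137314405-137314491 (minus strand, 87 bases) for Trip6 and chr5:137333598-137333832 (minus strand, 235 bases) for Slc12a9. They are chr5:137963099-137963348 (minus strand) for Gjc3, chr5:138084834-138085083 (plus strand) for Zkscan1 and chr5:136918896-136919145 (plus strand) for 4933404O12Rik, with 250 bases each.
Trip6: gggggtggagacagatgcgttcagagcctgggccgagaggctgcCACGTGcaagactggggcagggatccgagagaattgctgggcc
Slc12a9: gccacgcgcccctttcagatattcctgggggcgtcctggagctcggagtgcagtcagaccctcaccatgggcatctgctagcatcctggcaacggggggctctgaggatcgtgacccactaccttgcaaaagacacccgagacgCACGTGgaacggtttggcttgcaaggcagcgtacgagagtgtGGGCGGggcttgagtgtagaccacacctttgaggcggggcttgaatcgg
Gjc3: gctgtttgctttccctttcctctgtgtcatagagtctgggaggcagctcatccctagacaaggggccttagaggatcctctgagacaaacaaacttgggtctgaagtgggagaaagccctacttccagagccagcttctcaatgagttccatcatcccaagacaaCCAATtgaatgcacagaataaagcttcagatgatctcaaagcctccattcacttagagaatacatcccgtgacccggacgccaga
Zkscan1: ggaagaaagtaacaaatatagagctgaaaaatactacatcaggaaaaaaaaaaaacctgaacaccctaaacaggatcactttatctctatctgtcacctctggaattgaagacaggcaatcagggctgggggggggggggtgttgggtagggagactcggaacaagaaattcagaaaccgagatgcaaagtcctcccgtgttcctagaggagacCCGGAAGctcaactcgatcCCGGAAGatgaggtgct
4933404O12Rik: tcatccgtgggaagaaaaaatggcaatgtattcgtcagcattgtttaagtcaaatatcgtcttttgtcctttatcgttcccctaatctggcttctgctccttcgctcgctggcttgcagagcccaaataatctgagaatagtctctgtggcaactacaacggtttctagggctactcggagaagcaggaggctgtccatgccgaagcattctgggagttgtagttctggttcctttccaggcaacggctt

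Motifs were searched on both strands of the whole 250 bases, counting overlapping matches: the TATA box written TATAAA, the CCAAT box, the GC box written GGGCGG, the cyclic AMP response element written TGACGTCA, the E box written CACGTG, the ETS site written CCGGAAG and the NRF1 site. Trip6 held the E box at 206 and 48 bases before its start, a GC box at 112 and the cyclic AMP response element at 23 bases. Only the first of these E boxes lies in the printed bases. The E box was in 6.02% and the cyclic AMP response element in 1.55% of 32851 promoters of the same length. Slc12a9 held an E box at 106 and a GC box at 64 bases before its start, and a CCAAT box at 13, outside the printed bases. Gjc3 held a single CCAAT box 85 bases before its start (33.8% of all promoters had one), Zkscan1 held CCGGAAG at 36 and 17 bases before its start (6.91% of all promoters), and 4933404O12Rik held none of the 7. The adjacent genes Trip6 and Slc12a9 had 11 and 16 CpG dinucleotides in 250 bases, against 3 for Gjc3, 6 for Zkscan1, 10 for 4933404O12Rik and a median of 6 over all promoters. A match here is a description of the letters and not evidence of binding.

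Muc3a was the member with the largest difference between the groups. Muc3a (ENSMUSG00000094840, chr5:137208813-137212389, minus strand), annotated as a mucin gene, is a short model with 1887 exonic bases in a span of 3.58 kb. Replicates 1 to 3 had 898, 822 and 684 counts among the KO and 249, 120 and 166 among the WT libraries. On the CPM scale this was 30.1, 35.3 and 33.96 in KO and 10.3, 7.04 and 8.07 in WT. Every KO library was above every WT library, the lowest KO value being well clear of the highest WT value. The means were 33.1 ± 2.72 and 8.47 ± 1.67 CPM (SD, n = 3 each), 3.87-fold higher in KO (log2 fold change 1.95, SE 0.13). With any 1 library left out the log2 fold change lay between 1.85 and 2.12, the highest being without WT replicate 1.

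No transcript of another annotated gene matched Muc3a over 100 bases or more at 90% identity or above. The related gene Muc3 ends 59.5 kb before it on the same strand (chr5:137134922-137149322) and did not pass the filter on low counts. Of 14 other mucin genes listed, 4 could be tested and 10 had too few counts. None of these 4 passed edgeR's test, with 1 at an unadjusted p below 0.05 (higher in KO), and their summed level was 9.198 to 11.07 CPM in KO against 8.572 to 9.867 CPM in WT. Emcn, an endothelial sialomucin gene, was the highest of them at 6.96 ± 0.526 against 6.57 ± 0.679 CPM (SD, n = 3; edgeR adjusted p = 0.79). Of genes near Muc3a, the ubiquitin ligase gene Trim56 on one side was at 11.2 ± 0.693 against 10.04 ± 0.117 CPM (edgeR adjusted p = 0.465), and Ache, the next on the other side, is described with its own group.

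**Figure D1:**
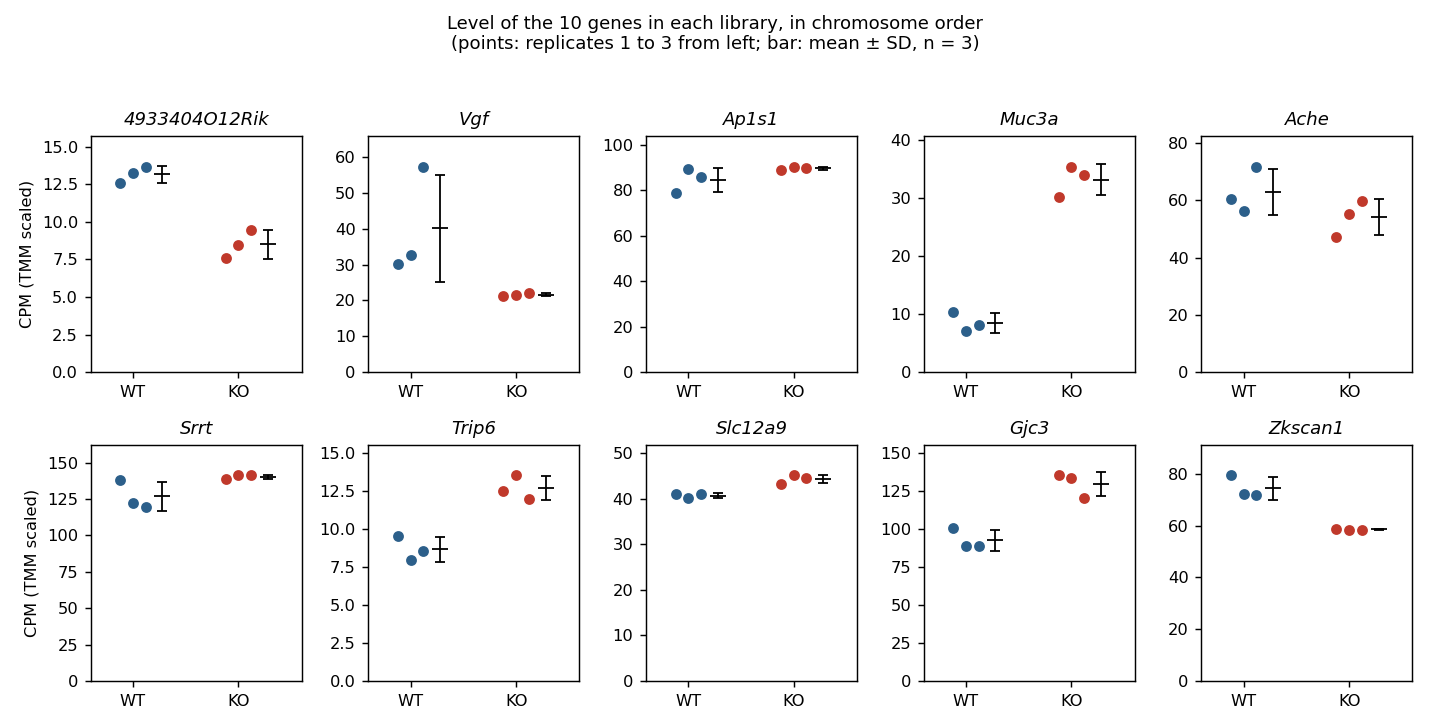
Level of each of the 10 genes in CPM (vertical axis, starting at 0) in the 3 WT (blue) and 3 KO (red) libraries, with points for replicates 1 to 3 from left to right and the mean ± SD beside them. Muc3a stood at 30.1 to 35.3 CPM in KO against 7.04 to 10.3 in WT, while Ap1s1 and Ache had overlapping groups.

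Gjc3 (ENSMUSG00000056966, chr5:137953461-137963098, minus strand), the glial connexin, was the second most abundant member per kilobase in KO. Its levels were 135.2, 133.3 and 120.4 CPM in KO and 100.6, 88.5 and 88.7 CPM in WT. All KO values lay above all WT values. The means were 129.7 ± 8.07 and 92.6 ± 6.93 CPM (SD, n = 3 each), 1.40-fold higher in KO (log2 fold change 0.49, SE 0.07), and the log2 fold change was 0.45 to 0.55 with any 1 library left out. Without KO replicate 2, at 0.47, it no longer met the threshold that had placed it on the list.

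Markers of the cells that express Gjc3 were compared beside it. All 20 oligodendrocyte and myelin markers tested had a log2 fold change above 0, with a median of 0.15 against -0.01 over all genes tested. An unadjusted p below 0.05 in edgeR was met by 10, against 17.6% of all genes in either direction. In DESeq2 6 rose, where 3.38% of all genes passed in either direction, and without WT replicate 1 also 6. In edgeR with all libraries 3 of the 20 rose (adjusted p below 0.05), where 0.784% of all genes rose. These were the cytoskeletal gene Ermn (53.8 ± 2.01 against 40.2 ± 0.603 CPM), the link protein gene Hapln2 (23.0 ± 1.35 against 13.9 ± 2.42 CPM) and the tight junction gene Cldn11 (354.8 ± 11.1 against 287 ± 14.1 CPM), with edgeR adjusted p = 0.00468, 0.0162 and 0.0321. Mbp, a myelin protein gene with the highest level of the list, was at 7033 ± 152.6 CPM in KO and 6155 ± 136.5 CPM in WT and did not pass (edgeR adjusted p = 0.167), but passed in DESeq2 (adjusted p = 0.0119). The summed level of the 20 was 15480 to 16120 CPM in KO and 13990 to 14160 CPM in WT. All 12 oligodendrocyte precursor markers had a log2 fold change below 0 (median -0.12), with 0 passing in edgeR and 4 at an unadjusted p below 0.05. In DESeq2 1 passed, and without WT replicate 1, when 10.5% of all genes passed, 4 did. Their summed level was 662.9 to 713 CPM in KO against 713.8 to 828.2 CPM in WT. In these bulk samples a larger number of cells of a type and more RNA per cell cannot be told apart, and the part of either list in the value of Gjc3 was not tested. Hapln2 and Cldn11 did not pass when KO replicate 1, 2 or 3 or WT replicate 2 was left out (log2 fold changes 0.67 to 0.75 and 0.29 to 0.33), nor did Ermn without KO replicate 2 (0.41).

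Of 11 other connexin and pannexin genes that could be tested, 0 passed in edgeR, with 1 higher and 1 lower at an unadjusted p below 0.05, and their median log2 fold change was -0.06. The astrocyte connexin gene Gja1 was at 201.3 ± 3.08 against 203.7 ± 15.9 CPM (edgeR adjusted p = 0.911). Gjb1, a connexin gene of oligodendrocytes named after its values were seen, had a log2 fold change of 0.24 and did not pass (edgeR adjusted p = 0.298). In the longest transcript of Gjc3, 682 of 4002 bases (17%) matched transcripts of other genes at 90% identity or above. The next highest share among the members was 4.95%, for 4933404O12Rik. Whether such matches affect the counts was not tested.

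Zkscan1 (ENSMUSG00000029729, chr5:138085084-138107822, plus strand) is the next tested gene after Gjc3, 121985 bases further on, and differed in the opposite direction. It was at 58.8, 58.5 and 58.2 CPM in KO and 79.4, 72.0 and 71.7 CPM in WT. The KO values were nearly identical and lay below all WT values. The means were 58.5 ± 0.266 and 74.4 ± 4.39 CPM (SD, n = 3 each), lower in KO by 1.27-fold (log2 fold change -0.35 with an SE of 0.06). The log2 fold change ran from -0.37 without WT replicate 3 to -0.30 without WT replicate 1, and without KO replicate 1, 2 or 3 (-0.35, -0.35 and -0.34) it no longer met the threshold. Zscan21, a zinc finger gene of the same family that begins just beyond the stretch, was at 34.6 ± 0.738 against 32.3 ± 3.002 CPM (edgeR adjusted p = 0.525).

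Among 21 other SCAN and KRAB zinc finger genes and their corepressor, 0 passed in edgeR, the unadjusted p was below 0.05 for 1 with a higher and 2 with a lower level, and the median log2 fold change was 0.01. Trim28, the corepressor that KRAB domains recruit, was at 183.7 ± 2.54 against 213 ± 10.4 CPM (edgeR adjusted p = 0.0862), and passed in DESeq2 (adjusted p = 0.032), with no filter on low counts (0.027) and when WT replicate 1 was left out (edgeR adjusted p = 0.0138). Zkscan3 was at 92.9 ± 5.40 against 92.3 ± 15.2 CPM (edgeR adjusted p = 0.981).

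Trip6 (ENSMUSG00000023348, chr5:137309654-137314404, minus strand), a member of the zyxin family that carries signals between focal adhesions and the nucleus, was higher in KO than in WT. It had 372, 314 and 241 counts in KO and 230, 135 and 175 counts in WT, or 12.5, 13.5 and 11.97 against 9.53, 7.92 and 8.51 CPM. The groups did not overlap. The means were 12.6 ± 0.78 and 8.65 ± 0.812 CPM (SD, n = 3 each), 1.46-fold higher in KO (log2 fold change 0.54, SE 0.11). The log2 fold change stayed between 0.49 and 0.62 with 1 library left out. It kept the call without WT replicate 1 (0.62) and lost it without any of the other 5 libraries (0.55, 0.50 and 0.58 without KO replicates 1, 2 and 3, and 0.49 and 0.53 without WT replicates 2 and 3). None of 14 other zyxin family and focal adhesion genes passed in edgeR, with 1 higher and 1 lower at an unadjusted p below 0.05. The paxillin gene Pxn was at 193.8 ± 11.5 against 164 ± 28.3 CPM (edgeR adjusted p = 0.267, but 0.00375 when WT replicate 1 was left out and 0.00768 with no filter), and the actinin gene Actn4 at 118 ± 3.84 against 125 ± 7.60 CPM (edgeR adjusted p = 0.499).

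Slc12a9 and Srrt, the genes on either side of Trip6, differed less. Slc12a9 (ENSMUSG00000037344, chr5:137314558-137333597, minus strand), upstream of Trip6 on the same strand, was at 43.3, 45.1 and 44.5 CPM in KO and 41.04, 40.07 and 40.97 CPM in WT. Its groups did not overlap, and the means of 44.3 ± 0.913 and 40.7 ± 0.543 CPM (SD, n = 3 each) were 1.09-fold apart (log2 fold change 0.12, SE 0.06). Srrt (ENSMUSG00000037364, chr5:137295704-137307674, minus strand), 1979 bases on the other side of Trip6, was at 138.8, 141.2 and 141.3 CPM in KO and 138.2, 122.6 and 119.6 CPM in WT. WT replicate 1 reached nearly the KO values while the other WT libraries lay lower. The means were 140.4 ± 1.42 and 126.8 ± 10.02 CPM, 1.11-fold apart (log2 fold change 0.15, SE 0.06), and the log2 fold change was 0.21 without WT replicate 1, where Srrt passed the threshold, and 0.11 without WT replicate 3. A difference as large as that of Trip6 was thus not seen in either adjacent gene, although the differences between these genes were not tested against each other.

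Of 13 other cation-chloride cotransporter and WNK pathway genes, 0 passed in edgeR, with 2 higher and 1 lower at an unadjusted p below 0.05 and a median log2 fold change of 0.09. Slc12a5, the neuronal potassium-chloride cotransporter gene, was at 430.2 ± 11.8 against 454 ± 62.03 CPM and the kinase gene Wnk1 at 224 ± 1.30 against 205 ± 18.4 CPM (edgeR adjusted p = 0.676 and 0.339). Wnk1 passed without WT replicate 1 (adjusted p = 0.02). Of 17 cap-binding and microRNA processing genes, 0 passed in edgeR, with 1 higher and 1 lower at an unadjusted p below 0.05. The Argonaute genes Ago1 and Ago2 were at 124 ± 3.11 against 129 ± 2.64 CPM and 108 ± 2.86 against 108 ± 3.79 CPM (edgeR adjusted p = 0.607 and 0.999).

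Vgf (ENSMUSG00000037428, chr5:137026392-137033351, plus strand), the neuropeptide precursor, was lower in KO but did not meet the threshold. Its levels were 21.4, 21.4 and 22.1 CPM in KO and 30.2, 32.8 and 57.3 CPM in WT. The KO values were tightly grouped below all WT values, while WT replicate 3 stood well above the other WT libraries. The means were 21.6 ± 0.389 and 40.07 ± 14.95 CPM (SD, n = 3 each), lower in KO by 1.86-fold (log2 fold change -0.89 with an SE of 0.20). Without WT replicate 3 the log2 fold change was -0.54 and without WT replicate 1 it was -1.07, and in both fits Vgf met the threshold. With all 6 libraries it met the threshold only when no filter on low counts was applied (log2 fold change -0.89), among the 7 alternatives that kept every library. That fit gave Vgf an SE of 0.09, where the main fit gave 0.20.

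Of 14 other granin and prohormone processing genes tested, 2 fell in edgeR, 0 rose and 12 did not pass, where 0.872% of all genes tested fell. An unadjusted p below 0.05 was met by 8 of the 14, all lower in KO, against 17.6% of all genes in either direction, and 13 had a log2 fold change below 0 (median -0.23, against -0.01 over all genes tested). Scg5, the chaperone of prohormone convertase 2, fell from 237.5 ± 5.72 to 151.1 ± 2.61 CPM (log2 fold change -0.65, SE 0.05, edgeR adjusted p = 0.000114). Scg3, a granin of the granule membrane, fell from 336.2 ± 16.9 to 278.7 ± 4.49 CPM (log2 fold change -0.27, SE 0.06, edgeR adjusted p = 0.0436), a call lost when KO replicate 1, 2 or 3 or WT replicate 2 was left out (log2 fold changes -0.28 to -0.26), with no scaling beyond library size and with a minimum mean of 1 CPM. Cpe, which trims prohormone peptides and had the highest level of the list, had 813.9 ± 6.63 CPM in KO and 943 ± 139.6 CPM in WT (edgeR adjusted p = 0.275, but 0.0377 when WT replicate 1 was left out). In that fit, which called 10.5% of all genes in either direction, 8 of the 14 fell. Cadps2 was at 464 ± 13.9 against 509.4 ± 9.24 CPM (edgeR adjusted p = 0.242). The summed level of the 14 was 2991, 3071 and 3074 CPM in KO and 3366, 3438 and 3944 CPM in WT, with WT replicate 3 again the highest. Immediate early genes, whose set often moves with neuronal activity, summed to 255.3 to 413.2 CPM in KO and 352.3 to 398.2 CPM in WT, with 0 of 18 passing in edgeR and 1 lower at an unadjusted p below 0.05.

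Ap1s1 (ENSMUSG00000004849, chr5:137034993-137046135, minus strand) ends 1641 bases from the end of Vgf, the pair being transcribed towards each other, and had overlapping groups. It was at 88.6, 90.3 and 89.6 CPM in KO and 78.7, 89.2 and 85.7 CPM in WT. WT replicate 1 was the lowest and WT replicate 2 lay within the KO range. The means were 89.5 ± 0.819 and 84.5 ± 5.37 CPM (SD, n = 3 each; log2 fold change 0.08, SE 0.06), and the log2 fold change was 0.03 without WT replicate 1 and 0.13 without WT replicate 2. All 23 other adaptor complex subunit genes could be tested and 0 passed in edgeR, with 2 higher and 3 lower at an unadjusted p below 0.05 and a median log2 fold change of -0.07. The AP-2 genes Ap2m1 and Ap2b1 were at 374.8 ± 3.38 against 409.5 ± 34.5 CPM and 245.8 ± 1.53 against 278.6 ± 36.9 CPM (edgeR adjusted p = 0.35 and 0.302), and both were lower past the threshold without WT replicate 1 (edgeR adjusted p = 0.0461 and 0.0153).

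Ache (ENSMUSG00000023328, chr5:137287519-137294466, plus strand), the acetylcholinesterase gene, also had overlapping groups. Its levels were 47.3, 55.02 and 59.8 CPM in KO and 60.6, 56.1 and 71.7 CPM in WT. KO replicate 3 was above WT replicate 2, and WT replicate 3 was the highest. The means were 54.04 ± 6.33 and 62.8 ± 8.01 CPM (SD, n = 3 each; log2 fold change -0.22, SE 0.10), and the log2 fold change ran from -0.30 without KO replicate 3 to -0.11 without WT replicate 3. It met the threshold only when no filter on low counts was applied (-0.22), of 13 alternatives. The SE of Ache was 0.07 in that fit. Ache was the member with reads left out of the count for overlap with a gene on the other strand. These were 17 to 58 reads per library, 1.47% to 4.33% of the reads counted by strand, and the annotated partner is the long noncoding RNA gene Gm42456. Srrt had 1 such read in KO replicate 1 and the other 8 members had 0 in all libraries.

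None of the 17 other cholinergic genes tested passed in edgeR, with 0 higher and 5 lower at an unadjusted p below 0.05 and a median log2 fold change of -0.36. In DESeq2 3 genes of the list fell and 0 rose, where 3.38% of all genes passed in either direction. Without WT replicate 1, 4 fell and 0 rose, where 10.5% of all genes passed. Of the 21 listed, 4 had too few counts to be tested, among them Chat and Slc18a3, which define cholinergic neurons. Lynx1, a modulator of nicotinic receptors, and the nicotinic subunit gene Chrnb2 were at 393.6 ± 6.05 against 387 ± 24.3 CPM and 143 ± 4.15 against 148 ± 6.65 CPM (edgeR adjusted p = 0.874 and 0.657).

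The long noncoding RNA gene 4933404O12Rik (ENSMUSG00000097908, chr5:136919146-136937112, plus strand) opens the stretch and was lower in KO. It had 226, 197 and 191 counts in KO and 303, 226 and 281 counts in WT, or 7.57, 8.47 and 9.48 against 12.6, 13.3 and 13.7 CPM. The groups did not overlap. The means were 8.51 ± 0.956 and 13.2 ± 0.562 CPM (SD, n = 3 each), lower in KO by 1.55-fold (log2 fold change -0.63 with an SE of 0.11). The log2 fold change was -0.72 without KO replicate 3 and -0.55 without KO replicate 1, and it did not meet the threshold with KO replicate 1 left out, nor with KO replicate 2 (-0.63) or WT replicate 2 (-0.62) left out. The coding genes on its 2 sides did not pass. Fis1, a mitochondrial fission gene, was close to equal between the groups, at 109 ± 0.725 against 108.5 ± 6.38 CPM (edgeR adjusted p = 0.958). Ift22, of intraflagellar transport, which ends just before the stretch, was at 46.4 ± 1.47 against 50.3 ± 0.868 CPM (edgeR adjusted p = 0.304). Its groups did not overlap, with KO the lower (log2 fold change -0.12, SE 0.05).

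**Figure D2:**
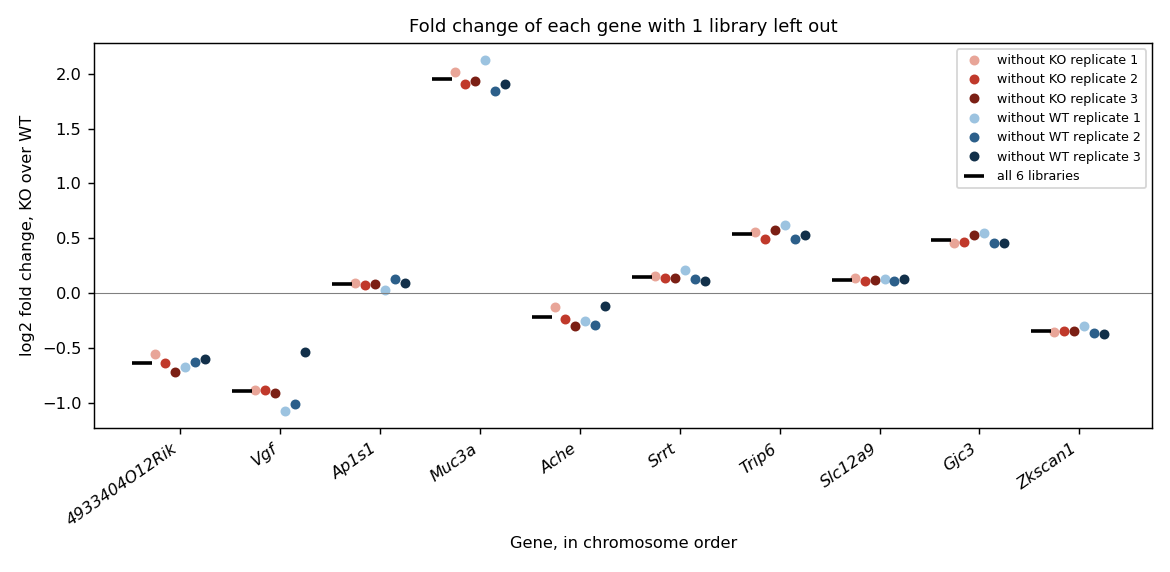
Log2 fold change of KO over WT (vertical axis) for each gene with all 6 libraries (black bar) and with 1 library left out (points, red shades for KO and blue shades for WT replicates). Each gene kept its sign in all 6 fits, and Vgf moved the most, from -1.07 without WT replicate 1 to -0.54 without WT replicate 3.

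Per kilobase of exon the members spanned a wide range of levels, and their order differed between the groups. In WT, Ap1s1 was the highest at 38.5 ± 2.44 RPKM (CPM per kilobase of exon, SD, n = 3), followed by Srrt (24.2 ± 1.91) and Gjc3 (21.3 ± 1.59), whose ranges overlapped. Ache (13.6 ± 1.73) and Vgf (13.5 ± 5.03) came next and overlapped too, then Zkscan1 (8.71 ± 0.513), Slc12a9 (8.11 ± 0.108), Muc3a (4.49 ± 0.887) and Trip6 (3.56 ± 0.334), of which only the last pair overlapped, and 4933404O12Rik was the lowest (2.77 ± 0.118). In KO, Gjc3 (29.8 ± 1.85) was above Srrt (26.8 ± 0.271), Muc3a (17.6 ± 1.44) was the fourth member, above Ache (11.7 ± 1.37), and Slc12a9 (8.83 ± 0.182) was above Vgf (7.27 ± 0.131) and Zkscan1 (6.85 ± 0.0312). No 2 neighbours in the KO order overlapped.

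The coefficient of variation among animals was smaller in KO for 8 of these genes. That of Zkscan1 was 0.455% in KO and 5.90% in WT, that of Ap1s1 0.915% and 6.35%, and that of Vgf 1.80% and 37.3%. For 4933404O12Rik (11.2% against 4.27%) and Slc12a9 (2.06% against 1.33%) the KO libraries varied more.

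Across the stretch, 42 of 77 annotated genes could be tested, the 10 members and 32 others, 23 of them protein coding. In KO against WT, 5 of the 42 passed in edgeR, 3 higher (Muc3a, Trip6 and Gjc3) and 2 lower (4933404O12Rik and Zkscan1), where 1.66% of all genes tested passed, 0.784% higher and 0.872% lower. All 5 are members, as the choice of members fixes, and these counts are given as a description. KO and WT values did not overlap in 8 of the 10 members and in 7 of the 32 others (21.9%), against 23.7% of all genes tested. The 32 others had log2 fold changes of -0.26 to 0.84 with a median of 0.12. Of these 32, 0 passed in edgeR, DESeq2 and limma-voom (3.38% and 1.71% of all genes passed in the latter tools), and 6 (18.8%) were at an unadjusted p below 0.05, close to the 17.6% of all genes tested.

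The 6, named after their values were seen, were all higher in KO. Gigyf1, a translation repressor gene, was at 103.8, 104.1 and 112.7 CPM in KO and 103.5, 76.2 and 79.2 CPM in WT (edgeR adjusted p = 0.167), so that WT replicate 1 lay beside the KO libraries. Tsc22d4, a leucine zipper gene, was at 116.6 ± 4.87 against 104.5 ± 1.99 CPM (edgeR adjusted p = 0.167). The others, Gm20768, Gm8066, Gm17112 and Gm8099, are noncoding or pseudogene models with means of 1.91 to 4.38 CPM in KO and 1.11 to 2.53 CPM in WT. Gm17112 is annotated as antisense, and the counts used ignore strand. All 9 tested genes of the stretch that are not protein coding and not members had a log2 fold change above 0 (median 0.62), as had 72.6% of such genes over all chromosomes (median 0.24), while the 23 protein-coding others had a median of 0.02. Without WT replicate 1, when 10.5% of all genes passed, Gm8066, Gigyf1 and Gm17112 passed (log2 fold changes 0.89, 0.46 and 1.16, adjusted p = 0.0377, 0.00135 and 0.00578).

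**Figure D3:**
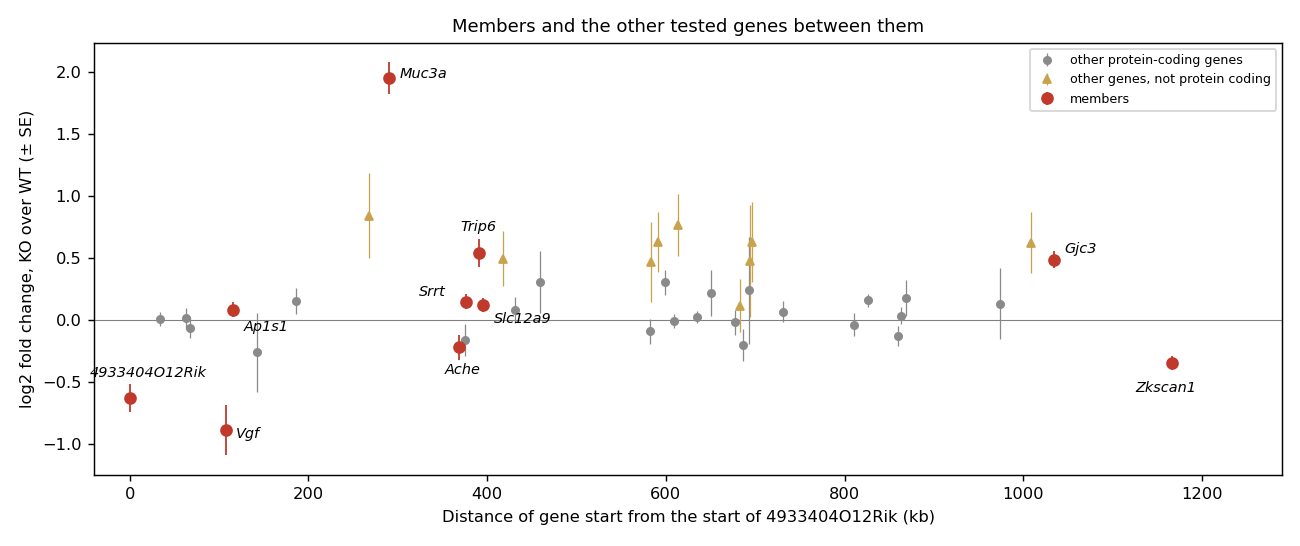
Log2 fold change of KO over WT with its SE (vertical axis) against the distance of each gene's start from that of 4933404O12Rik (horizontal axis, kb) for the 10 members (red) and the 32 other tested genes (grey circles protein coding, gold triangles not). Changes in both directions stand beside genes near 0, with Muc3a at 1.95 the highest and Vgf at -0.89 the lowest.

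Between Galnt17 and the stretch lie 57 tested genes, of which 0 passed in edgeR and 9 were at an unadjusted p below 0.05, with log2 fold changes from -0.28 to 0.51 and a median absolute value of 0.10. In this interval 13 genes (22.8%) had groups that did not overlap. Over all genes tested 1.66% passed, 17.6% were at an unadjusted p below 0.05 and 23.7% had groups that did not overlap. Counting 12 Mb to either side of Galnt17, 162 tested genes before it and 75 beyond the stretch likewise gave 0 calls, with 20 and 7 at an unadjusted p below 0.05. The median absolute log2 fold change was 0.09 in both, against 0.12 over all genes tested and 0.19 in the stretch itself, where the members were picked. At 1.66% only a few calls would fall in each of these intervals, and whether 0 calls differs from that share was not tested. The nearest other calls on chromosome 5, named after their values were seen, were Mir703 at -32.4 Mb from Galnt17 and the pseudogene Gm8615 at 17.85 Mb beyond it. In DESeq2 and limma-voom 0 of the genes between Galnt17 and the stretch passed as well, where 3.38% and 1.71% of all genes passed. Without WT replicate 1, when 10.5% of all genes passed, 5 genes between Galnt17 and the stretch passed. These were Stx1a, Pom121, Mdh2 and Ywhag, lower (log2 fold changes -0.24, -0.27, -0.26 and -0.35), and Rasa4, higher (0.38).

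**Figure D4:**
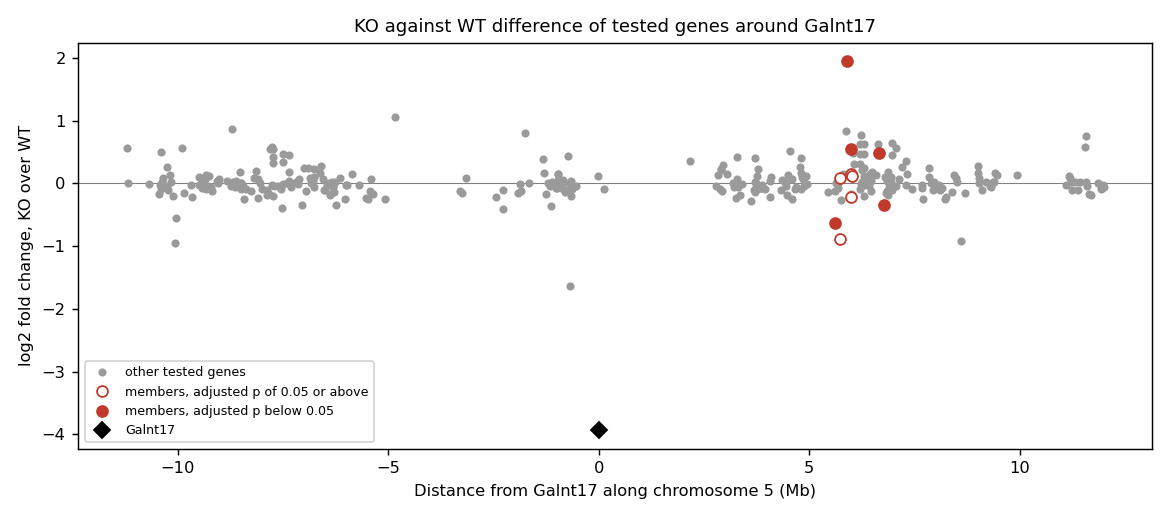
Log2 fold change of KO over WT (vertical axis) against distance from Galnt17 on chromosome 5 (horizontal axis, Mb, 0 at the gene, which is the black diamond) for tested genes within 12 Mb. Members that had passed the threshold are filled red, the other members open red, and other genes grey. All calls in this window apart from Galnt17 (-3.94) fall 5.61 to 6.78 Mb beyond it.

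The genes with patterns most like those of Muc3a and Vgf, the members with the largest differences, were sought by Pearson correlation of log2 CPM over the 6 libraries among 14658 protein-coding genes outside the stretch. These correlations are descriptions over few libraries that share the group difference. For Muc3a they were Caskin1 (r = 0.996), Itpr3 (0.994) and Rassf2 (0.993), of which Caskin1 (211 ± 2.28 against 174.8 ± 6.85 CPM, edgeR adjusted p = 0.033) and Rassf2 (75.8 ± 1.29 against 57.4 ± 3.13 CPM, adjusted p = 0.00661) rose. Caskin1 lost its call when KO replicate 1, 2 or 3 or WT replicate 2 was left out (log2 fold changes 0.25 to 0.28) and Rassf2 without KO replicate 2 (0.39). For Vgf they were Ets1 (0.997), Tpr (0.996) and Ap3b1 (0.996), none of which passed in edgeR with all 6 libraries. Tpr passed in DESeq2 (adjusted p = 0.0323), with no filter (0.00411) and when WT replicate 1 was left out (0.0145), and Itpr3 also passed in the last of these (edgeR adjusted p = 0.0321). Over deviations from the group means, which leave out the difference between KO and WT, the closest were Trappc8, Usp28 and Myo9a for Muc3a (r = 0.998, 0.997 and 0.997) and Eprs, Sowaha and Tpr for Vgf (r = 0.9996, 0.9996 and 0.9988). The 3 for Muc3a were highest in WT replicate 1, with Trappc8 at 101.1 CPM there against 86.65 to 92.24 CPM in the other libraries. Muc3a too was higher there than in the other WT libraries, so this likeness leans on WT replicate 1. The 3 for Vgf were highest in WT replicate 3, with Eprs at 178.9 CPM there against 129.2 to 136.5 CPM in the other libraries, so that this likeness to Vgf rests on that animal.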

How the data were processed

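Per the labels' protocols, libraries of cerebellar RNA from 3 KO and 3 WT mice were made with a TruSeq kit. The authors deposited 1 table of whole-number read counts per library, and the submitters' processing notes name STAR 2.7.5a, the build mm10 and edgeR 3.12. The file names give Ensembl release 102. STAR settings used for counting: not given in the sources used here. The column counted without strand was used, since the strand columns split evenly. Reads that were unmapped, multimapping, in no gene or ambiguous (6.52% to 17.2%, 3.72% to 4.29%, 6.94% to 9.30% and 3.95% to 4.44% of reads) were kept out. Groups came from the strain label. Totals of 17111611 to 29840046 counts limit the precision together with the spread among animals, and without molecular identifiers reads may be copies of 1 molecule.

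Genes were named from GENCODE release M21 (GRCm38), which matched 55227 of 55487 identifiers. All genes were fitted together with edgeR 4.0.16 (TMM scaling, default filter with a minimum count of 10 and total of 15, two-sided quasi-likelihood test), and p-values were adjusted by Benjamini-Hochberg with a threshold of 0.05. CPM are TMM scaled, and SEs come from the log2 fold change and F statistic. Alternatives used DESeq2 1.42.0, limma 3.58.1, other scaling, filters and count columns, and left out each library. Similar transcripts were sought with BLAST 2.17.0. The steps were tested on simulated data.

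The members, lists, tests and alternatives were chosen with earlier results of these data known. Named were the members, called genes of the stretch, the nearest tested coding genes, called genes (at most 4) and the 2 highest genes of each list, and the genes most like Muc3a and Vgf. Some genes that this rule names are not reported here. Other genes are said to be named after their values were seen. P-values of the fits set the difference between the groups against the spread among these animals, estimated with information shared across genes.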

Additional observations from a re-analysis of the deposited data

Results flagged for a closer look

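Unmapped reads, which enter no comparison of genes, made up a larger share in every KO library than in any WT library, at a mean of 15.5% ± 1.72 in KO and 8.79% ± 1.97 in WT (SD, n = 3 each; difference 6.69 percentage points). An exact permutation test, two-sided, gave p = 0.1, the smallest that 3 against 3 libraries allow. The sequence of these reads was not analysed here, and their part in the values of the 10 genes was not tested.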

How the results depend on the processing

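Across all genes, 143 were higher and 159 lower in KO. With DESeq2 these were 294 and 263, with no filter beyond a total count above 0 they were 803 and 820, and with 1 library left out 28 to 959 and 53 to 962, the highest without WT replicate 1 and the lowest without KO replicate 2. The fit with no filter took in 33485 genes and gave Vgf and Ache smaller SEs than the main fit. The choroid plexus marker Ttr, at 4.256 to 430.8 CPM in KO, passed there (edgeR adjusted p = 3.28e-302, against 0.154 with the filter). Calls gained in that fit are therefore to be read with caution. Other genes of the stretch gave 0 calls, 2 with no filter and 0 to 3 with 1 library left out. Genes between Galnt17 and the stretch gave 0 calls, 2 with no filter and 0 to 5 with 1 library left out. Genes of the fixed lists gave 21 calls, 35 with DESeq2, 52 with no filter and 2 to 66 with 1 library left out. The log2 fold change of each of the 10 members kept its sign in all 13 alternatives and moved by less than 1 SD among replicates, while the number of members past the threshold, 5 as reported, was 7 with no filter (Vgf and Ache added), 7 without WT replicate 1 (Vgf and Srrt added), 2, 1 and 3 without KO replicates 1, 2 and 3 and 3 without WT replicate 2. Of 895 values of the 69 other named genes, 46 lost a call, 21 gained one and none reversed a call. No paired analysis was possible because the labels name animals by codes and carry no replicate numbers, so the numbers used here only name the libraries. Counts in WT were lowest for Muc3a, Trip6 and 4933404O12Rik among the members (120 to 303). In KO they were lowest for Trip6 and 4933404O12Rik (191 to 372), and Muc3a had 684 to 898. The SE was largest for Vgf (0.20).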
